A study of Mus musculus with 12 samples.

Results

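Interferon-induced genes are the transcripts that cells raise when an interferon reaches its receptor. They were taken here as the protein-coding genes of the deposited count table whose names match a fixed pattern: the Ifit, Ifitm, Oas, Gbp, Irf, Ifi and Mx families, and single genes such as Stat2, Isg15, Isg20, Rsad2, Usp18, Bst2, Xaf1, Ddx58 and Ifih1. This name rule, which used no measured value, found 72 of the 54532 genes of the table. The members were nevertheless chosen with earlier results of these data known. Total RNA was sequenced from dorsal root ganglia, the clusters of sensory neuron cell bodies beside the spinal cord, of C57BL/6 mice. All mice received D-alanine. The 6 control libraries carried the genotype CDH5-Cre, a recombinase driven by the promoter of vascular endothelial cadherin, and the 6 DAAO libraries the genotype DAAO-TGCdh5, in which D-amino acid oxidase can turn D-alanine into hydrogen peroxide. Cre is missing from the DAAO genotype label and stands only in the sample names of that group. Age, sex and the dose and length of the D-alanine treatment are not given in the labels. Nor do the labels say that each library is a separate animal, so p-values measure the spread between these libraries, which may be technical.

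Interferons work through a short pathway. Type I interferons (Ifna, Ifnb1) bind Ifnar1 and Ifnar2, and the type II interferon Ifng binds Ifngr1 and Ifngr2. The receptors' Janus kinases then phosphorylate Stat proteins. With Irf9 these form a complex that binds the interferon-stimulated response element (ISRE), whereas a pair of Stat molecules alone binds the gamma-activated site (GAS). The induced proteins block viral entry (Ifitm), viral RNA (Ifit, Oas, Ddx58, Ifih1) and intracellular pathogens (Gbp, Mx), and Socs and Usp18 proteins shut the signal down. In sensory ganglia such genes are known to respond to virus infection and nerve injury, in neurons, glia and macrophages.

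The RefSeq promoters of the members (build GRCm38.p6; 250 bases before to 50 after each start) were searched for the ISRE letters GAAANNGAAA on both strands and for the GAS letters TTCNNNGAA, which read alike on both strands. Promoters were found for 56 of the 72 members, 68 promoters in all. The ISRE letters were in 32 of these 68 (47.1%), against 3.44% of all 32851 promoters, and the GAS letters in 13 (19.1%), against 8.30%. A match is a description of the letters and not of binding. The ISRE letters were in 5 of 7 promoters of the GTPase genes, 8 of 11 of the Ifi200 family and 6 of 9 of the Ifit genes, but in 2 of 12 of the transcription factors. The 250 bases before the start, 5′ to 3′ on the strand of the gene, follow for the 4 members to which the results return. Among them the values of Irf8 came nearest to a difference between the groups. Gbp7 was highest in control 5 and Isg15 in DAAO 6, and the group means of Ifit3 were alike. Capitals mark the matches.
Irf8, chr8:120736108-120736357, plus strand: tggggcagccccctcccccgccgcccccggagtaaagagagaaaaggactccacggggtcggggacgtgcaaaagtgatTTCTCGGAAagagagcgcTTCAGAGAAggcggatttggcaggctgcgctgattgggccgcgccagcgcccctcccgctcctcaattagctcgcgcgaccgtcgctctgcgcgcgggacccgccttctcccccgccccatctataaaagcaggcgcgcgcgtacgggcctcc
Isg15, chr4:156200819-156201068, minus strand: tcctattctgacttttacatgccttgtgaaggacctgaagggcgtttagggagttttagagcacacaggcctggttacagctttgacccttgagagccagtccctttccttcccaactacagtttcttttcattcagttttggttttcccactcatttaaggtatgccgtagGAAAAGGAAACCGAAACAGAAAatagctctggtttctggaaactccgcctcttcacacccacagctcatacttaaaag
Ifit3, chr19:34583279-34583528, plus strand: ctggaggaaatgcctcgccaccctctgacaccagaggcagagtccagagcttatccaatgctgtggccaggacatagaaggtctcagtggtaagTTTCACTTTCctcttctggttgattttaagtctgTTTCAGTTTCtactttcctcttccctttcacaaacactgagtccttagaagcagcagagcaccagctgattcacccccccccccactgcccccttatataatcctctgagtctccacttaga
Gbp7, chr3:142530086-142530335, plus strand: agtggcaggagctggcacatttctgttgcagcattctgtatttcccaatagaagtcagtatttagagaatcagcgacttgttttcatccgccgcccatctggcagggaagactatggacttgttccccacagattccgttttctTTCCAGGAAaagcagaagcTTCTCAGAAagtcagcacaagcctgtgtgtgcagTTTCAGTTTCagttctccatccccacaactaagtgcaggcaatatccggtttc
The Irf8 promoter holds 2 GAS matches, which begin 171 and 153 bases before the start, and no ISRE match, and a second RefSeq promoter of this gene, at chr8:120738389-120738688, holds neither. In Isg15 3 ISRE matches overlap in 1 run, beginning 78, 72 and 66 bases before the start. Ifit3 has 2 ISRE matches, at 156 and 122 bases, and Gbp7 has 2 GAS matches, at 106 and 87 bases, and 1 ISRE match at 53 bases.

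The libraries held 13227518 to 23884927 counts. Of the 17002 genes with enough counts to be tested, 128 (0.753%) differed between the groups at an adjusted p under 0.05 in edgeR's quasi-likelihood test, 86 of them higher (0.506%) and 42 lower (0.247%) in DAAO. All 7 sensory neuron markers had counts in every library, as the labelled tissue requires, with summed levels of 5412 to 10481 CPM (read counts put on 1 common library size) in control and 5492 to 8673 in DAAO. Markers of other tissues varied between libraries. The 5 skeletal muscle markers summed to 2002 CPM in control 4 and to at most 808 in any other library, and the 13 macrophage markers summed to 59.7 in control 4, the lowest of the 12. Controls 2 and 6 had the highest shares of mitochondrially encoded counts, 7.44% and 7.65%, against 3.32% to 5.13% in the other 10 libraries. Control 2 also stood apart in glial markers. Its 5 oligodendrocyte markers, of the adjoining spinal cord, summed to 2272 CPM, against at most 623 in any other library, and its 5 Schwann cell markers to 18612, against at most 7288. The fits without these libraries or control 5 are given where they move a result named here.

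No interferon-induced gene passed the test between DAAO and control ganglia. Of the 72 members 55 had enough counts to be tested, and 0 of these passed in edgeR's quasi-likelihood test, beside the 0.753% of all genes tested. DESeq2 called 1, Irf8, and limma-voom called 0. An unadjusted p under 0.05 was found for 3 members, all higher in DAAO (Irf8, Irf5 and Gbp4). These are 5.45% of the tested members, beside 5.44% of all genes tested with the same direction and limit. In either direction it was found for 10.3% of all genes. The CPM of the groups did not separate for any member, beside 1.45% of all genes.

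Over the 55 tested members 37 log2 fold changes (DAAO minus control) were positive and 18 negative, a positive share of 67.3% beside 50.4% of all genes tested, and their median was 0.10, beside 0.00. Single libraries and the test moved this excess in both directions. Without control 4, 29 of 56 tested members were positive and the median was 0.00. Without control 5, 44 of 57 were positive with a median of 0.18, and without both libraries 36 of 60 with a median of 0.04. With limma-voom 41 of 55 were positive and the median was 0.20. The 95% interval of the fold change, taken gene by gene without adjustment, lay within a 2-fold difference in either direction for 29 members (52.7%, beside 68.6% of all genes). It lay within a 1.5-fold difference for 13, and reached a rise of 2-fold or more for 19 and a fall of that size for 11, with 4 in both. The median standard error of the members' log2 fold changes was 0.32, beside 0.20 over all genes.

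**Figure D1:**
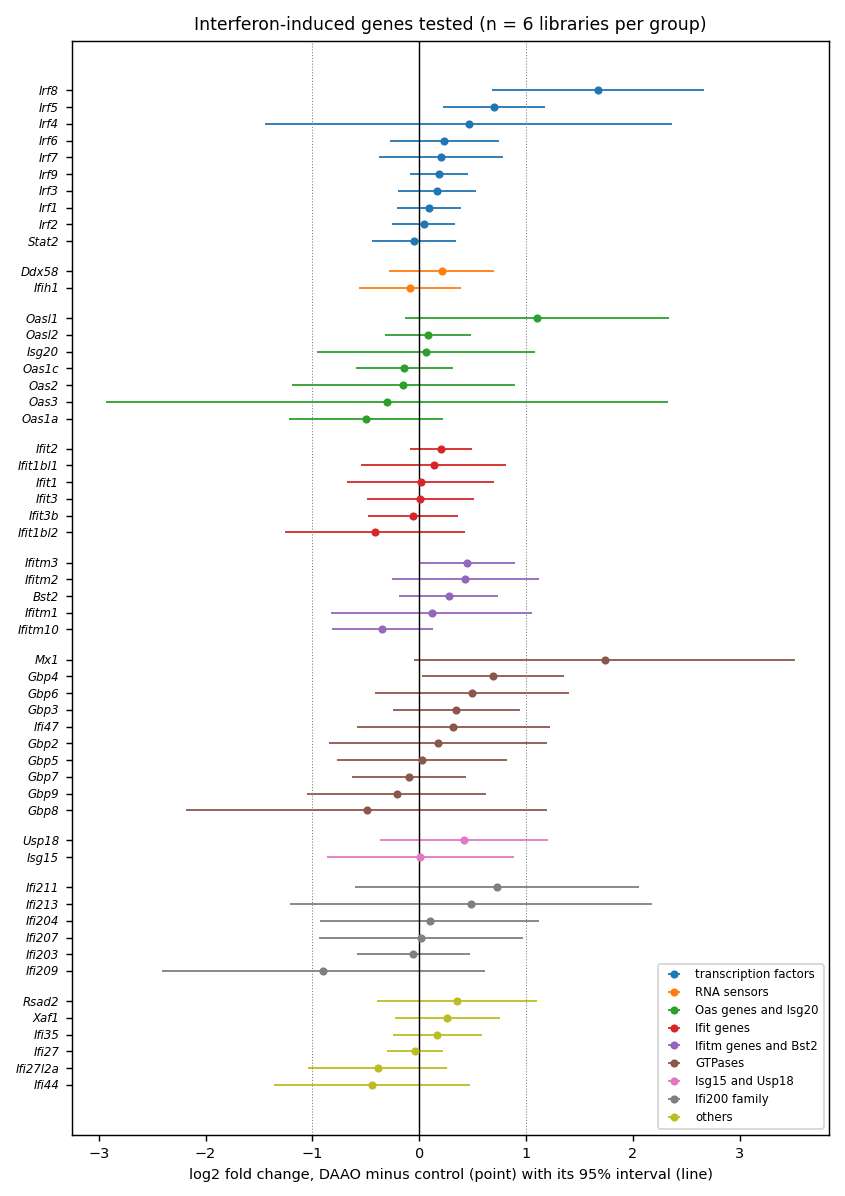
Log2 fold change (x axis, DAAO minus control, points) with its unadjusted 95% interval (lines) for 54 of the 55 tested members, coloured and grouped by role, from 6 libraries per group. Dotted lines mark a 2-fold difference. The point of Irf8 lies at 1.67 with an interval from 0.68 to 2.67, and apart from Irf8, Irf5 and Gbp4 every interval includes 0.

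The transcription factors held the members nearest to a call. Of the 11, all tested, 9 had positive and 2 negative values (median 0.18), and 0 passed (beside 0.753% of all genes). Irf8 (ENSMUSG00000041515; chromosome 8, 120736358 to 120756694, build GRCm38), a factor that macrophages and dendritic cells need to develop, ran from 0.801 to 5.77 CPM in control, with a median of 2.70, and from 3.76 to 12.6 in DAAO, with a median of 9.99. All 6 DAAO libraries lay above the control median, and the groups overlapped only through DAAO 4, at 3.76, which lay below controls 2, 3 and 5. The means were 2.92 ± 2.17 and 9.38 ± 3.37 CPM (SD, n = 6), a log2 fold change of 1.67 ± 0.47 (SE), and edgeR's adjusted p was 0.143. Among the alternatives in which the gene passed were fits with DESeq2 (adjusted p = 0.0188), without control 2 (1.98, edgeR's adjusted p = 0.0414) and without controls 2 and 6 (1.78, adjusted p = 0.0437), and over all alternatives the adjusted p ran from 0.0188 to 0.318.

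Irf5 (ENSMUSG00000029771; chromosome 6, 29526625 to 29541871), which carries signals of Toll-like receptors in macrophages, ran from 7.45 to 10.4 CPM in control (median 8.33) and from 7.73 to 19.3 in DAAO (median 13.3). Its 3 highest libraries were DAAO 2, 3 and 6, while DAAO 1 and 4 lay within the range of the controls. The log2 fold change was 0.70 ± 0.23 (edgeR's adjusted p = 0.228). Irf5 shares 411 exon bases, 14.1% of its length, with Tnpo3 on the opposite strand, whose log2 fold change was -0.04. Since it is not known whether strand was used in counting, reads of that stretch cannot be assigned to either gene.

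Stat2, which with Irf9 carries the interferon signal to DNA, had a log2 fold change near 0. Stat2 ran from 37.5 to 87.9 CPM in control (median 68.5) and from 47.3 to 85.8 in DAAO (median 69.4), a log2 fold change of -0.05 ± 0.19. Its DNA-binding partner Irf9 had 0.18 ± 0.13, with all 6 DAAO libraries above the control median. Irf7, the factor that amplifies type I interferon production and is itself strongly induced, stood at 7.41 ± 3.11 CPM in control and 8.51 ± 2.28 in DAAO (SD, n = 6), with a log2 fold change of 0.20 ± 0.27. The 95% interval of Stat2 (-0.44 to 0.35) excludes a 1.5-fold rise in DAAO, and that of Irf7 (-0.38 to 0.78) excludes a 2-fold one.

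**Figure D2:**
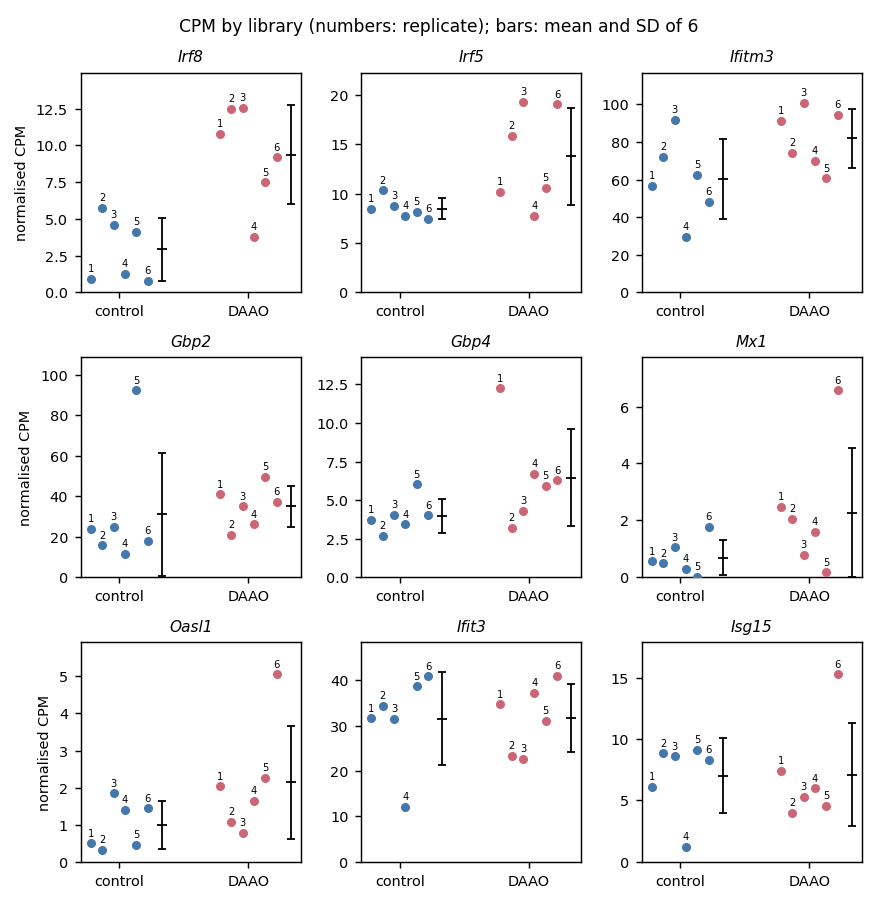
Normalised CPM (y axis, from 0) of 9 members in each of the 12 libraries, with the replicate number beside each point and the mean and SD of 6 libraries as bars. Control 5 stands above the rest for Gbp2 (92.2 CPM), DAAO 6 for Mx1 (6.57), Oasl1 (5.05) and Isg15 (15.3), and control 4 lies below the rest for Ifit3 (12.1).

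Macrophages are the cells in which Irf8 and Irf5 are best known, and 11 of their 13 markers had positive log2 fold changes. All 13 macrophage markers had counts in every library. Their summed level ran from 59.7 to 453 CPM in control (220 ± 138) and from 190 to 747 in DAAO (442 ± 208; SD, n = 6). Of the 13, 0 passed in edgeR's quasi-likelihood test, and an unadjusted p under 0.05 was found for 7 higher and 1 lower, beside 5.44% of all genes higher and 0.753% of all genes called. The groups did not overlap for 1 of the 13, Cd68 (1.45% of all genes). The lysosomal protein Cd68 went from 4.88 ± 3.71 to 29.0 ± 17.7 CPM (log2 fold change 2.56, adjusted p = 0.0902), the signalling adaptor Tyrobp from 7.50 ± 4.74 to 27.6 ± 15.8 (1.88, adjusted p = 0.120), and the receptor Csf1r from 32.3 to 43.9 (0.44, adjusted p = 0.841). The scavenger receptor Cd163 had a log2 fold change of -0.98 (adjusted p = 0.387). Ptprc, which marks all leukocytes, had 5.67 ± 2.85 CPM in control and 10.4 ± 4.07 in DAAO. Their part in the values of Irf8 and Irf5 was not tested. In a whole ganglion, more cells of a type and more RNA per cell cannot be told apart. T cells, a usual source of Ifng, were sparse, and none of their 8 markers had counts in all 12 libraries. The markers summed to 1.67 to 6.32 CPM in control (mean 3.16) and 2.48 to 11.2 in DAAO (mean 7.08). Cd28, with too few counts to be tested, did not overlap, at 0 to 0.140 CPM in control and 0.379 to 2.86 in DAAO. Cd4 had a log2 fold change of 1.71 (edgeR's adjusted p = 0.495) and Trac 0.07. The untested Cd3g had means of 0.461 in control and 0.291 in DAAO.

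**Figure D3:**
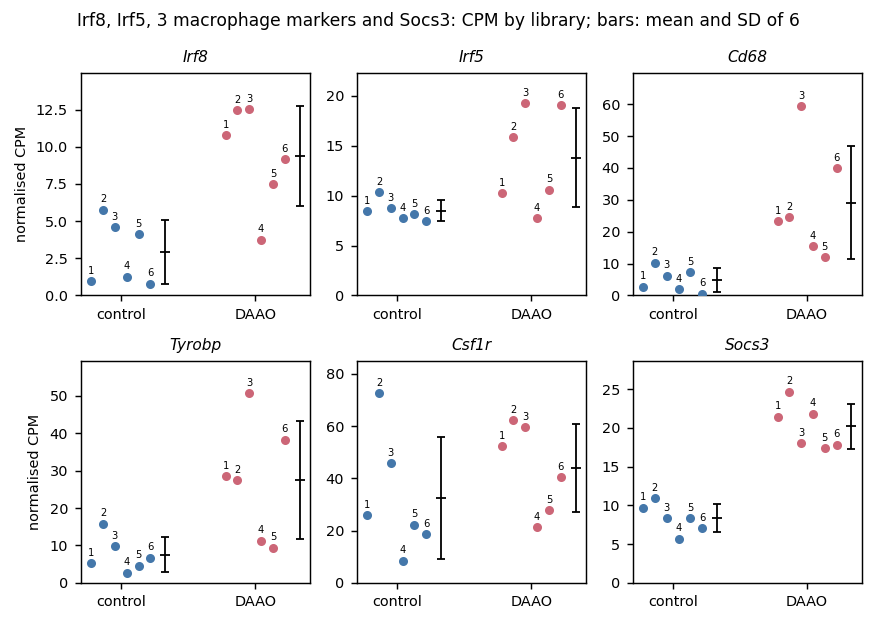
Normalised CPM (y axis, from 0) by library for Irf8, Irf5, the macrophage markers Cd68, Tyrobp and Csf1r, and Socs3, with replicate numbers and the mean and SD of 6 libraries per group. The 6 DAAO libraries lie above all 6 controls for Socs3 (17.4 and above, against 10.9 and below) and for Cd68 (11.9 and above, against 10.3 and below), and the groups overlap for Irf8 and Irf5.

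The GTPase genes, which coat and break open the compartments of intracellular pathogens (Gbp) or trap viral particles (Mx), were spread widely. Of 12 members 10 were tested, 7 with positive and 3 with negative values (median 0.25), and 0 passed (0.753% of all genes). Gbp4 (ENSMUSG00000079363) ran from 2.70 to 6.01 CPM in control (median 3.86) and from 3.18 to 12.3 in DAAO (median 6.10), a log2 fold change of 0.69 ± 0.31 (edgeR's adjusted p = 0.464). Its highest library was DAAO 1, and DAAO 2 lay below the control median. Mx1, of which C57BL/6 mice carry a defective allele, ran from 0 to 1.76 CPM in control (median 0.520) and from 0.168 to 6.57 in DAAO (median 1.82). Its log2 fold change of 1.73 ± 0.84 (adjusted p = 0.503) rested on few counts, and without DAAO 6, which held the highest value, it was 1.05.

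Gbp2 showed how a single library set a group mean. It ran from 11.5 to 92.2 CPM in control (median 20.9) and from 21.0 to 49.6 in DAAO (median 36.0). All 6 DAAO libraries lay above the control median, yet control 5, at 92.2 CPM, lay above every other library. The log2 fold change was 0.17 ± 0.47 with all libraries (edgeR's adjusted p = 0.959), 0.89 without control 5 (adjusted p = 0.140) and 0.00 without control 4. Gbp3 and Gbp7, chosen after their values were seen, had 43.1 and 47.1 CPM in control 5. The highest other control held 19.0 for Gbp3 and 28.3 for Gbp7. The log2 fold change of Gbp3 was 0.35 with all libraries and 0.71 without control 5 (edgeR's adjusted p = 0.152). The summed Gbp level was 231 CPM in control 5, 51.0 to 84.3 in the other controls and 77.0 to 145 in DAAO.

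The antiviral proteins of the cell surface and endosome, Ifitm and Bst2, had the highest median of the 9 role groups, at 0.27, with 4 of 5 tested members positive (50.4% of all genes) and 0 called (0.753% of all genes). Ifitm3, which blocks the fusion of viruses with endosomes, ran from 29.4 to 91.7 CPM in control (median 59.5) and from 60.6 to 101 in DAAO (median 82.7). All 6 DAAO libraries lay above the control median, but controls 2, 3 and 5 lay within their range. The log2 fold change was 0.45 ± 0.21 (edgeR's adjusted p = 0.498), and 0.31 to 0.60 with 1 library left out. Ifitm2 had 0.43 ± 0.32 and Bst2, the tetherin that holds budding virions, 0.27 ± 0.22. In 3 of the 5 tested genes control 4 was the lowest of the 12 libraries: Bst2 (7.96 CPM), Ifitm2 (11.7) and Ifitm3 (29.4). The part of control 4 in the median of this group was not tested. Ifitm10, a distant relative, ran from 10.7 to 20.6 CPM in control (median 18.5) and from 7.80 to 21.3 in DAAO (median 13.1), a log2 fold change of -0.35 ± 0.22.

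The Ifit proteins, which bind viral RNA and stop its translation, lay near 0. All 6 were tested, 4 positive and 2 negative, with a median of 0.01. Ifit3 ran from 12.1 to 40.9 CPM in control (median 33) and from 22.7 to 41.1 in DAAO (median 32.9), a log2 fold change of 0.01 ± 0.24. Only control 4, at 12.1 CPM, stood apart from the others, which held 22.7 or more. Ifit1 had 0.01 ± 0.32 and Ifit2 0.20 ± 0.14. Ifit1bl2 ran from 1.22 to 4.05 CPM in control (median 2.01) and from 1.10 to 2.02 in DAAO (median 1.85), a log2 fold change of -0.42 ± 0.40. Ifit3 and Ifit3b are related copies that may exchange reads, which was not measured, so their values are uncertain.

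Isg15, the ubiquitin-like protein that is attached to others in interferon-treated cells, ran from 1.22 to 9.09 CPM in control (median 8.46) and from 4.0 to 15.3 in DAAO (median 5.63). DAAO 6 alone reached 15.3, and the other 5 DAAO libraries lay below the control median. The log2 fold change was 0.01 ± 0.41, with a 95% interval of -0.86 to 0.88. Usp18, which removes Isg15 and restrains the receptor, had 0.42 ± 0.37.

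The RNA sensors Ddx58 (RIG-I) and Ifih1 had log2 fold changes of 0.21 ± 0.23 and -0.09 ± 0.23. Ddx58 ran from 10.2 to 33.7 CPM in control (median 26.8) and from 21.6 to 36.6 in DAAO (median 28.6). The oligoadenylate synthetases, which activate an RNA-degrading enzyme when they meet double-stranded RNA, and the exonuclease Isg20 had more negative than positive values. Of these 12 genes 7 were tested, 3 positive and 4 negative, with a median of -0.14 and 0 called (0.753% of all genes). Oas1a ran from 1.59 to 5.83 CPM in control (median 4.45) and from 1.95 to 4.20 in DAAO (median 2.69). All 6 DAAO libraries lay below the control median, and the log2 fold change was -0.50 ± 0.34 (edgeR's adjusted p = 0.687). Oasl1, which limits the translation of Irf7, went the other way, from 0.324 to 1.85 CPM in control (median 0.952) and from 0.785 to 5.05 in DAAO (median 1.83), with 1.10 ± 0.58 (adjusted p = 0.551). DAAO 6 held the 5.05 and the next DAAO library 2.27 CPM. With 1 library left out the log2 fold change of Oasl1 ran from 0.645 to 1.36. Oasl2 had 0.08 ± 0.19.

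The Ifi200 family, nuclear and cytosolic proteins that bind DNA, had 6 of 11 members tested, 4 positive and 2 negative, with a median of 0.05. Ifi209 ran from 0 to 4.49 CPM in control (median 2.46) and from 0.393 to 1.90 in DAAO (median 1.32), a log2 fold change of -0.90 ± 0.71 (edgeR's adjusted p = 0.748). All 6 DAAO libraries lay below the control median, but with limma-voom the value turned to 0.16. Ifi207, the family member with the highest level per length, had 0.01 ± 0.45. Of the 6 other tested members 3 were positive and 3 negative, with a median of 0.06. Ifi27l2a ran from 5.24 to 28.4 CPM in control (median 19.6) and from 10.9 to 17.7 in DAAO (median 13.5), again with all 6 DAAO libraries below the control median and a log2 fold change of -0.39 ± 0.31 (adjusted p = 0.746), which was 0.00506 without controls 2 and 6. Ifi44 had -0.44 ± 0.44, and Rsad2 (viperin), which makes a chain-terminating nucleotide, 0.36 ± 0.35. Ifi27, a mitochondrial protein, ran from 117 to 188 CPM in control and from 125 to 164 in DAAO, with -0.04 ± 0.12.

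**Figure D4:**
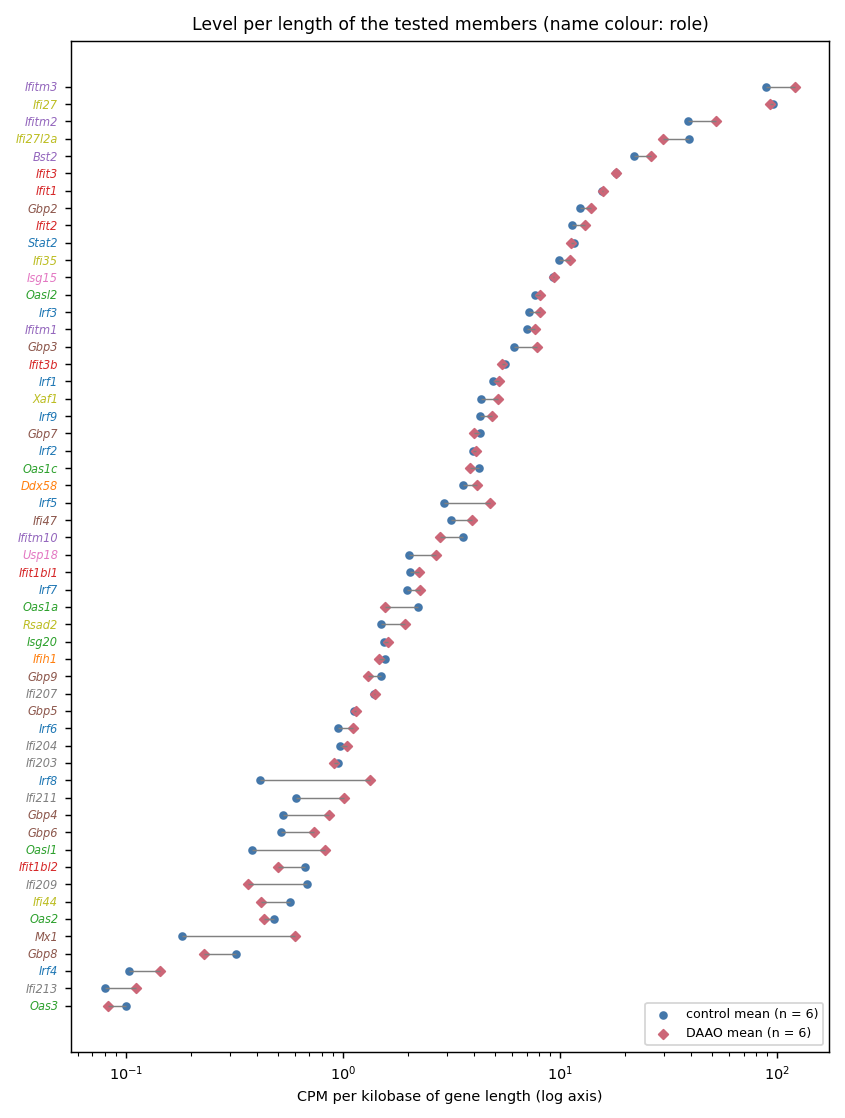
Mean level per gene length (x axis, log scale, normalised CPM per kilobase) of 54 of the 55 tested members in control (circles) and DAAO (diamonds), n = 6 each. Ifitm3 (88.6 and 121) and Ifi27 (95.7 and 93.1) stand at the top and Oas3 (0.100 and 0.0829) near the bottom.

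On the scale of CPM per kilobase of gene length, which allows genes to be compared, Ifi27 stood highest in control with 95.7, before Ifitm3 with 88.6, and their order was reversed in DAAO with 93.1 and 121. Ifi27l2a (39.1 in control, 29.8 in DAAO) and Ifitm2 (38.8 and 52.3) followed, then Bst2 (21.8 and 26.4), Ifit3 (18.1 and 18.2), Ifit1 (15.6 and 15.7) and Gbp2 (12.3 and 13.9). At the low end stood Oas3 (0.100 and 0.0829), Ifi213 (0.0803 and 0.111) and Irf4 (0.103 and 0.144). The 17 members not tested had 0 to 172 counts over all 12 libraries, and 2 of them, Oas1d and Oas1f, had none. The others were Oas1e, Oas1g, Oas1h, Gbp2b, Gbp10, Ifi202b, Ifi205, Ifi206, Ifi208, Ifi214, Ifitm5, Ifitm6, Ifitm7, Ifi27l2b and Ifi44l. Related copies among the members (Gbp2 and Gbp2b, Oas1a and Oas1g, Gbp6 and Gbp10, Ifi27l2a and Ifi27l2b) may exchange reads, so their values are uncertain. Their sequence identity was not measured. Gbp4, Gbp8 and Gbp9 share 60 to 61 exon bases on the same strand. Ifitm2 shares 268 exon bases, 40.9% of its length, with Gm45717, and Gbp6 29.0% of its length with Gm43302. Both partners lie on the same strand and had 0 counts. How reads of these stretches were assigned is not known, so the levels per length of Ifitm2 and Gbp6 are uncertain.

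The spread within groups was wider than for most genes, and it followed single libraries. The median coefficient of variation of the tested members was 43.4% in control and 30.0% in DAAO, beside 28.7% and 18.8% over all genes tested. Control 4 was the lowest of the 12 libraries in 27 of 55 members (49.1%), beside 11.2% of all genes tested, and lay below the member's own mean in 47. It was also the lowest in 13 of 17 antigen presentation genes. Its macrophage markers were the lowest and its muscle markers the highest of the 12 libraries, with a depth of 21687473 counts, and their part in the low values was not tested.

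Control 5 was the highest library in 11 of 55 members, beside 13.3% of all genes, among them Gbp2, Gbp3, Gbp7, Gbp8, Gbp9, Ifi47, Ifi207, Ifit3b, Ifitm1 and Ifih1. It was the highest in 5 of the 8 tested Gbp genes, and DAAO 1 in the other 3. Of 39 induced genes outside the members control 5 was the highest library in 11, with Iigp1 at 28.7, Igtp at 49.5, Irgm2 at 36.0, Tgtp2 at 13.8, and Cxcl9 at 10.5 CPM there. Nlrc5, an antigen presentation gene outside these 39, was at 17.1 CPM in control 5. Others of the 39 were higher elsewhere, with Irgm1 at 14.9 CPM in control 5 and 24.1 in DAAO 5, and Cxcl10 at 6.01 and, in DAAO 1, 17.3. DAAO 6 was the highest in 9 members (16.4%), beside 4.73% of all genes: Mx1, Ifi211, Ifi213, Ifit3, Isg15, Usp18, Oasl1, Ifi35 and Rsad2.

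**Figure D5:**
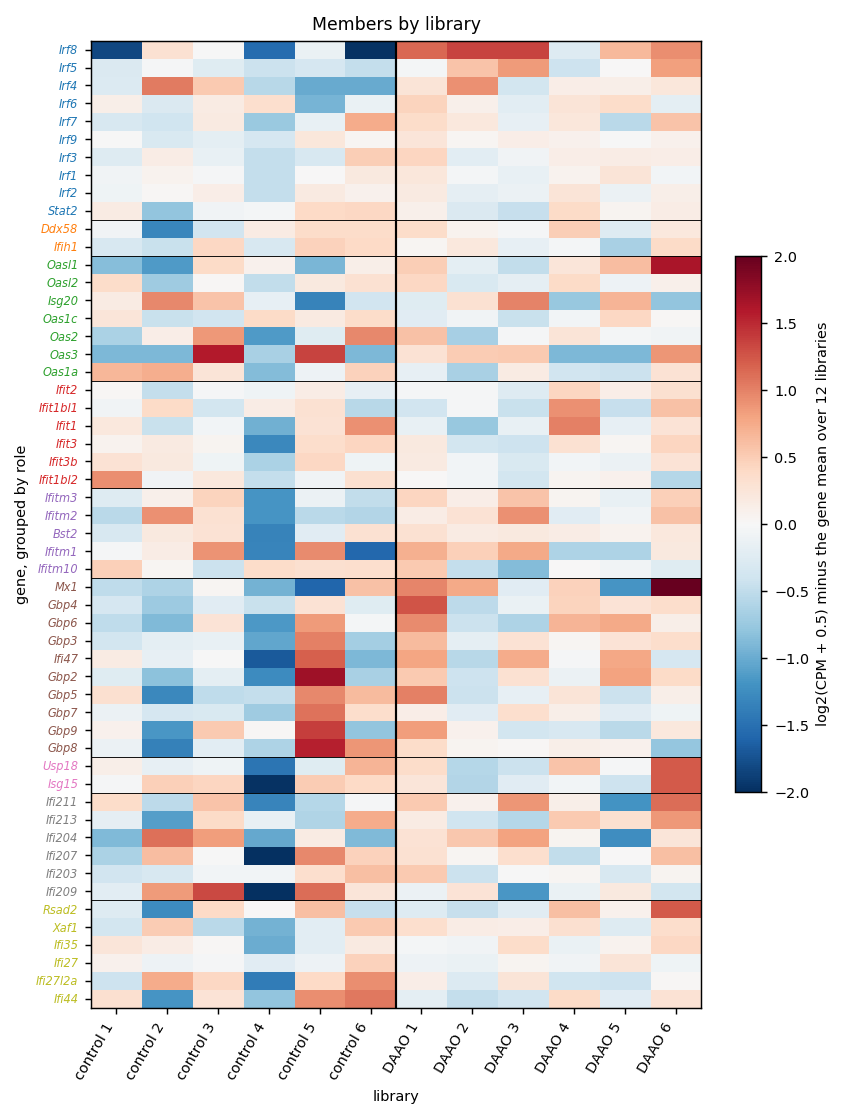
Log2(CPM + 0.5) of 54 of the 55 tested members minus each member's mean over 12 libraries (colour, cut at 2 in either direction), with members in rows grouped by role and libraries in columns, control left and DAAO right of the black line. Control 4 is low across most rows (below the mean in 47 of the 55 tested members), control 5 is high in the Gbp rows and DAAO 6 in the rows of Mx1, Isg15 and Oasl1.

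The rest of the pathway gave 1 called gene among 94 tested of 116 listed, beside the 0.753% of all genes, with 71 positive and 23 negative values (median 0.18). The interferons themselves were barely detected at this depth. Of 21 interferon genes 18 had no count in any library, among them Ifnb1, and all 21 together had 26 counts over the 12 libraries. Ifng had 3 counts, all in DAAO 1. A count of 0 allows up to 3 counts, which is 0.126 to 0.240 CPM by library and covers counting error only.

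Among the receptors and their kinases 0 of 9 passed (0.753% of all genes). Of these 9, 5 had positive and 4 negative values, with a median of 0.09. The lowest value, -0.54, was that of Ifnlr1, at 0.799 to 2.27 CPM in control and 0.393 to 1.26 in DAAO. The summed level of the 9 genes was 605 ± 86.3 CPM in control and 575 ± 21.5 in DAAO. The kinase Jak1 ran from 201 to 430 CPM in control and from 237 to 291 in DAAO. Ifnar2, a chain of the type I receptor, ran from 14.2 to 20.2 CPM in control (median 18.5) and from 21.3 to 26.4 in DAAO (median 24.2). Every DAAO library lay above every control. The groups did not overlap, in either direction, for 1.45% of all genes. The log2 fold change was 0.46 ± 0.14 (edgeR's adjusted p = 0.170), and without controls 2 and 6 it was 0.55 (adjusted p = 0.0460). The kinase Tyk2 had 0.42 ± 0.18 (adjusted p = 0.418). Of the 16 sensing and adaptor genes tested 13 were positive (50.4% of all genes) and 0 passed (0.753% of all genes). Ticam1, the adaptor of Tlr3, ran from 4.16 to 9.09 CPM in control and from 9.53 to 11.1 in DAAO, again without overlap (0.69 ± 0.22, adjusted p = 0.217). Unc93b1, which brings Toll-like receptors to endosomes, had 0.86 ± 0.26 (adjusted p = 0.182), with means of 16.2 ± 5.44 and 29.6 ± 9.75 CPM.

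Socs3, a feedback inhibitor of Janus kinases that is induced through Stat proteins by several cytokines, was the gene that rose. It ran from 5.71 to 10.9 CPM in control (median 8.39) and from 17.4 to 24.7 in DAAO (median 19.7), so that all 6 DAAO libraries lay above all 6 controls. The means were 8.36 ± 1.86 and 20.2 ± 2.92 CPM (SD, n = 6), a log2 fold change of 1.27 ± 0.18 with a 95% interval of 0.89 to 1.65 (edgeR's adjusted p = 0.00167). It passed under all alternatives run, with adjusted p from 1.6e-08 to 0.0126. Of the 13 inhibitors tested 12 were positive (50.4% of all genes), with a median of 0.22. The summed level of the list, which holds Socs3, was 240 to 259 CPM in control and 275 to 289 in DAAO, and this sum was not tested. Apart from Socs3 the inhibitors tested did not pass, Nlrc3 with 1.43 ± 0.46 (adjusted p = 0.217) among them.

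Of the 39 induced genes outside the name rule, all tested, 0 passed (0.753% of all genes), with 26 positive and 13 negative, and a median of 0.10. Cxcl10, a chemokine of T cells, had 4.36 ± 2.48 CPM in control and 8.45 ± 5.19 in DAAO (0.96 ± 0.45, edgeR's adjusted p = 0.479), and Parp14 had 0.49 ± 0.20 (adjusted p = 0.387). Antigen presentation genes were positive in 15 of 17 (50.4% of all genes) with a median of 0.28, and 0 passed (0.753% of all genes). Control 4 was the lowest library in 13 of these 17. Their summed level was 819 CPM there, 1221 to 1669 in the other controls and 1436 to 1943 in DAAO. The part of control 4 in the positive values was not tested. Tap1, a peptide transporter, had 0.52 ± 0.18 (adjusted p = 0.284). The class I gene H2-D1 had 290 ± 43.8 CPM in control and 357 ± 25.4 in DAAO (log2 fold change 0.30 ± 0.12, adjusted p = 0.377). The endothelium, the cell type that the Cdh5 promoter marks, had 9 markers that summed to 166 ± 20.6 CPM in control and 166 ± 39.0 in DAAO. Such a sum depends on the genes listed and does not measure the share of endothelial cells in these whole-ganglion libraries.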

How the data were processed

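The authors deposited 1 table of raw read counts, whole numbers for each gene in all 12 libraries, with gene names, lengths and positions. Per the submitters' processing notes, the tools were HISAT2 2.0.5, FastQC and DESeq2 1.20.0 on GRCm38 (mm10). Not given in the sources used here are the counting program, its use of strand and its annotation. Groups came from the labels. Genes were kept with filterByExpr (minimum count 10, minimum total count 15), which left 17002, scaled with TMM and tested with the robust quasi-likelihood test of edgeR 4.0.16 in R 4.3.3, two-sided, 6 DAAO against 6 control, with p-values adjusted by Benjamini-Hochberg over these genes (threshold 0.05). The SE of a log2 fold change is its size over the root of F. CPM are normalised by TMM and given as mean ± SD over 6 libraries. The test was also run on simulated data in which all genes had the same dispersion in both groups and no library stood apart. That run does not cover members that single libraries set apart. Alternatives were DESeq2 1.42.0, limma-voom (limma 3.58.1), other scalings and filters, the replicate number as a block, and each library left out in turn; fits without controls 2 and 6 and without controls 4 and 5 were added after seeing the data.

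The members, lists and named genes were chosen with earlier results of these data known. Values in full were given for members that passed, the 6 with the smallest p in each direction, the member of each role group with the highest level per length, and Irf7 and Isg15; for other lists, the genes that passed and the 2 with the smallest p. Further names were added after their values were seen. Of the members 71 of 72 had the same position and strand in GENCODE M21. Names that match the rule but are not labelled protein-coding were left out. 1 member is counted in totals, but its own values are not reported here. No test was made over the members as a set. Counting intervals and floors cover counting error only.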

Additional observations from a re-analysis of the deposited data

Results flagged for a closer look

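In 70 groups of 6 libraries, 1 for each named gene or sum in each group, 8 had a highest or lowest library farther from its neighbour than Dixon's 95% criterion for 6 values allows, and chance flags about 1 in 20. In control 5, Gbp2 was at 92.2 CPM (the next control at 24.6), Gbp3 at 43.1 (19.0) and the summed Gbp genes at 231 (84.3). In DAAO 6, Mx1 was at 6.57 CPM (the next DAAO library at 2.48), Oasl1 at 5.05 (2.27) and Isg15 at 15.3 (7.43). In control 4, Ifit3 was at 12.1 CPM (the next at 31.5), and in DAAO 2, H2-D1 was at 309 CPM (the next at 356). Gbp3 and the Gbp sum, which holds Gbp2 and Gbp3, were chosen after the values of control 5 were seen, so their marks cannot be set against that share. The causes were not tested.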

How the results depend on the processing

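Members called were 0 in the reported fit, 1 with DESeq2 (Irf8, 1.67) and with the replicate block (Irf8, 1.91, adjusted p = 0.0417), 0 to 1 with a library left out, and 2 without controls 2 and 6 (Irf8, 1.78, and Xaf1, 0.70, adjusted p = 0.0329). Of all genes, 128 were called, 362 with DESeq2, 187 with the block, 61 to 322 with a library left out (322 without control 2, and 61 to 80 without control 1, control 5, DAAO 1, DAAO 2, DAAO 3 or DAAO 6), 648 without controls 2 and 6 and 66 without controls 4 and 5. Pathway genes called were 4 without controls 2 and 6 (Socs3, Ifnar2 at 0.55, Jak1 at -0.49 and Rnaseh2c at 0.71). The members' median stayed between 0.00 and 0.20. With 1 library left out, Irf8 ran from 1.48 to 1.98.

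Log2 fold changes that changed sign were Ifit3 with DESeq2 (-0.0017), RLE scaling (-0.0015) and upper quartile scaling (-0.0025), where Isg15 had -0.0023; Ifi209 (-0.90 in the reported fit, 0.16) and Gbp7 (0.0299) with limma-voom; Gbp7 with the block (0.0262). Without controls 2 and 6, Ifi27l2a had 0.00506 (-0.39 in the reported fit), Ifi27 0.0567 and Gbp2 -0.10. Without controls 4 and 5, Ifit3 had -0.12, Stat2 0.0273, Isg15 -0.17, Ifi207 -0.00966 and Gbp7 0.11. With 1 library left out the ranges were -0.16 to 0.0934 for Ifit3, -0.22 to 0.26 for Ifi207, -0.17 to 0.0355 for Stat2, -0.36 to 0.14 for Isg15, -0.0233 to 0.16 for Oasl2, -0.22 to 0.20 for Gbp7 and -0.0947 to 0.0574 for Ifi27. The causes were not tested. Same-numbered libraries correlated at -0.08 to 0.21, and 3 of 6 best with their own number, so the block rests on a shared number only. Depth limits members with few counts, such as Mx1 and Ifi209.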

Other observations

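Of the 6 genes that match the name rule but are not labelled protein-coding, Ifi30, a lysosomal thiol reductase of antigen presentation, had 10.3 ± 4.49 CPM in control and 16.7 ± 6.25 in DAAO (SD, n = 6). Mx2 had 3.32 ± 1.60 and 3.53 ± 1.19 CPM, Oas1b 2.39 ± 1.22 and 2.19 ± 1.10, Gbp11 0.703 ± 0.645 and 1.46 ± 1.08, and Ifi203-ps 0.502 ± 0.418 and 0.929 ± 0.698. Gbp2-ps had 0 counts. All 5 with counts overlapped between the groups.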
